A study of Mus musculus with 8 samples.

Results

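The Nf1 locus of the mouse, with the genes Evi2a, Evi2b and Omg nested inside it, was examined for PU.1 and CEBPA binding. All ChIP-Seq peaks whose midpoint lay between 50 kb before and 50 kb after the Nf1 gene body were taken, a window of 342 kb at chr11:79289693-79631612 (mm10, GRCm38). The window held 20 of the 67673 peaks in the 4 lists examined. The locus had been chosen by its peak lists, because PU.1 and CEBPA peaks appeared together at Evi2a in one of the lines, so the peak classes given here are descriptions and no test was made on them.

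The cells were clonal lines of X18.1.1, a radiation-induced murine AML cell line in which one Pu.1 allele is deleted and the other is mutant. The PU.1− line carried the empty vector, and the PU.1+ line expressed PuER from a retroviral vector, in which wild-type PU.1 is joined to the part of the oestrogen receptor that responds to 4-hydroxytamoxifen (OHT). Both lines, each grown from 1 clone, kept the mutant PU.1 and were incubated in 100 nM OHT for 2 h. PU.1 ChIP and CEBPA ChIP gave 1 library each per line, and the H3K27Ac and IgG samples of the series were not analysed here. Effects of clone, vector and wild-type PU.1 cannot be told apart in this design. The peak number was 5288 (PU.1−) and 15683 (PU.1+) for PU.1 and 26119 (PU.1−) and 20583 (PU.1+) for CEBPA, and each peak was a 400-bp interval without height or read count, so the depth behind a list is unknown and a missing peak does not show that binding was absent.

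Nf1 encodes neurofibromin, a GTPase-activating protein that switches off RAS, and its loss is known in myeloid leukaemia. Evi2a and Evi2b were named for a common site of viral integration in murine myeloid leukaemia and encode transmembrane proteins, of which Evi2b is expressed in blood cells. Omg encodes oligodendrocyte myelin glycoprotein, a surface protein of the nervous system. PU.1 is an ETS factor that binds sites with a GGAA core and drives myeloid differentiation. CEBPA is a leucine zipper factor of the myeloid lineage that binds, as a dimer, sites in which copies of a short half-site face each other.

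Nf1 (ENSMUSG00000020716.16) ran along the plus strand at chr11:79339693-79581612, over 242 kb. The 3 nested genes ran along the minus strand inside intron 36 of the transcript Nf1-201, which has 58 exons. Evi2a (ENSMUSG00000078771.10) occupied chr11:79526560-79530609, Evi2b (ENSMUSG00000093938.2) chr11:79515056-79523762 and Omg (ENSMUSG00000049612.10) chr11:79500982-79504084. The annotation also held Evi2, a readthrough gene at chr11:79513385-79530589 that joins exons of Evi2a and Evi2b. Downstream of Nf1, Rab11fip4, which encodes an effector of the endosomal GTPase RAB11, began at chr11:79591212 on the plus strand.

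The 20 peaks fell on 9 sites, numbered 1 to 9 along the chromosome, out of 40138 sites when overlapping peaks of the 4 lists were merged. Site 1 lay before Nf1, sites 2 to 7 lay inside it, and sites 8 and 9 lay beyond it. The sequences below were read from the GRCm38 reference (RefSeq) and are shown because they hold the motif matches described for each site. Capitals mark, on either strand, GAGGAA (written here as the PU.1 core), GGAAGT (the ETS site), TTGCNNAA (the full CEBP site), TTGCA (the CEBP half-site), an ETS-IRF composite, TTGCATCA or TTACGTAA, as named for each entry. Sites that lie in untranslated exons are shown as 30 bases around the motif.
Site 1 with 1 PU.1 core, chr11:79307188-79307267, plus strand: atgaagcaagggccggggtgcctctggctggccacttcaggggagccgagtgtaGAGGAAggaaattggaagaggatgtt
Site 2 with TTACGTAA and an overlapping ETS site and PU.1 core, chr11:79452603-79452722, plus strand: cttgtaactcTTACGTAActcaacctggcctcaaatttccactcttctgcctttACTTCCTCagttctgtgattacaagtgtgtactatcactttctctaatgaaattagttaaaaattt
Site 3 with 2 PU.1 cores and a full CEBP site, chr11:79519952-79520111, plus strand: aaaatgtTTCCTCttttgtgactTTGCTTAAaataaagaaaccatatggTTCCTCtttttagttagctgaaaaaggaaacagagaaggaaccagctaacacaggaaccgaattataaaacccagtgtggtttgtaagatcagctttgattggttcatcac
Site 4 upstream of Evi2b with an ETS site that shares a base with a CEBP half-site, chr11:79523763-79523906, plus strand: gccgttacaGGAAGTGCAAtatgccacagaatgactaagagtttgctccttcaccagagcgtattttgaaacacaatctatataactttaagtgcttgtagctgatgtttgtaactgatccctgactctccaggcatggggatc
Site 4 in the first exon of Evi2b with an overlapping PU.1 core and ETS site, chr11:79523734-79523763, plus strand: ttctgtgcagcaGAGGAAGTttatcagtag
Site 5 with 1 PU.1 core and a CEBP half-site at the PU.1 midpoint, chr11:79527065-79527094, minus strand: ggaaaTGCAAagcagcaatGAGGAAggcag
Site 5 with the ETS-IRF composite, chr11:79527112-79527141, minus strand: gcacgaagaaGGAACTGAAAaactcaacta
Site 5 with 2 overlapping CEBP half-sites at the CEBPA midpoint, chr11:79527164-79527193, plus strand: gcacaccaggagaTTGCAAtaggaggttgg
Site 6 with 1 PU.1 core, chr11:79528153-79528182, minus strand: ggagccttcaaaGAGGAAgcacagcacaaa
Site 6 with 1 CEBP half-site, chr11:79528067-79528096, plus strand: ccatgtttaaccTTGCAccatagctctaca
Site 7 with the ETS-IRF composite and TTGCATCA, chr11:79536502-79536581, plus strand: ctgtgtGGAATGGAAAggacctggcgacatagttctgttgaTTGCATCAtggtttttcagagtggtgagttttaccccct
Site 8 with a full CEBP site, chr11:79583597-79583676, plus strand: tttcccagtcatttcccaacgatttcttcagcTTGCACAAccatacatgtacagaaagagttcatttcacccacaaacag
Site 9 with 2 ETS sites, chr11:79623196-79623355, plus strand: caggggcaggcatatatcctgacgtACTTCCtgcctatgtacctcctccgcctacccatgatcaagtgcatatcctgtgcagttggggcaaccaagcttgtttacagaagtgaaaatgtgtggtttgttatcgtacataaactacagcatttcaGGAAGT

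PU.1 binding was seen at 2 sites of the window in PU.1− and at 7 in PU.1+. Both PU.1− peaks were also called in PU.1+, at the start of Evi2b (site 4) and inside Rab11fip4 (site 9). The other 5 PU.1+ peaks were new, meaning that no PU.1− peak overlapped them by 1 bp or more, and 4 of the 5 lay inside Nf1. CEBPA was called at 5 sites in PU.1− and at 6 in PU.1+. Of these, 4 were called in both lines (sites 2, 4, 7 and 8), 1 only in PU.1− (site 1) and 2 only in PU.1+ (sites 5 and 6).

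**Figure D1:**
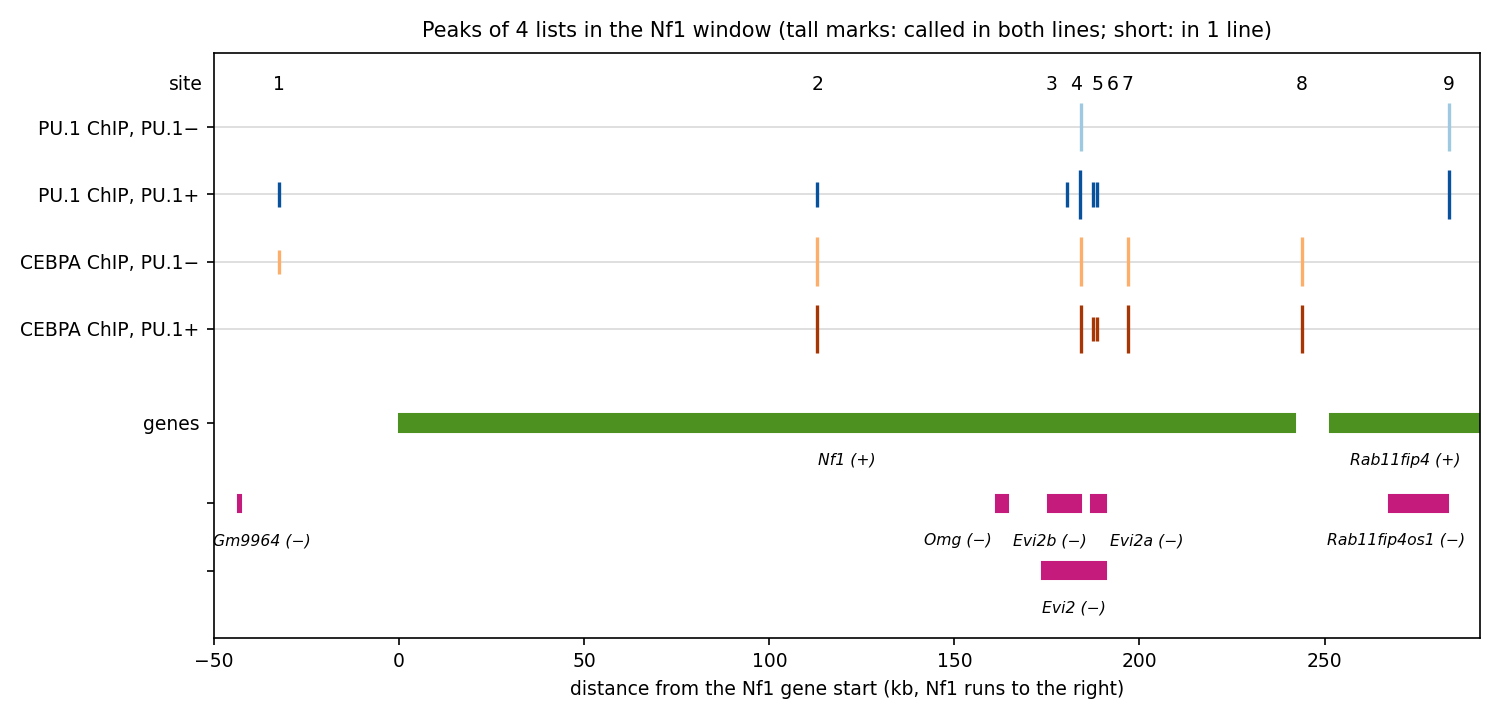
Positions of the 20 peaks in the 342-kb window, 1 row for each list, by distance in kb from the start of Nf1, with genes on the plus strand in green and on the minus strand in magenta. Tall marks are peaks called in both lines and short marks are peaks called in 1 line. Of the 9 sites, 4 lie inside the nested genes Evi2a and Evi2b or at the start of Evi2b.

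The peaks were gathered around Evi2a and Evi2b. The interval from Omg to Evi2a spanned 29.6 kb, or 8.67% of the window, and held 4 of the 9 sites and 9 of the 20 peaks. These 9 peaks were 1 PU.1 peak of PU.1−, 4 PU.1 peaks of PU.1+, 1 CEBPA peak of PU.1− and 3 CEBPA peaks of PU.1+. Of the 9, 7 came from PU.1+, whose PU.1 and CEBPA lists held 15683 and 20583 of all 67673 peaks. The new peaks at Evi2a, by which the locus was chosen, are among these 7 and so also among the 9. The gathering is therefore a description and was not tested. Elsewhere in the window, the lists of PU.1− held 5 peaks and the lists of PU.1+ held 6.

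Evi2a had peaks only in the lists of PU.1+. Its 4050-bp body held a pair of sites, 5 and 6, each with a new PU.1 peak and a new CEBPA peak, and no peak of either PU.1− list. At site 5, PU.1 was called at chr11:79526889-79527288 and CEBPA at chr11:79526979-79527378, in the second exon of Evi2a-201. The PU.1 midpoint lay in the 3′ UTR of Evi2a. The CEBPA midpoint, 90 bp nearer to the start of the gene, was annotated as coding sequence or as 3′ UTR, depending on the transcript. At site 6, PU.1 was called at chr11:79527998-79528397 and CEBPA at chr11:79527896-79528295. Here the order was the opposite, with the CEBPA midpoint 102 bp farther into the gene than the PU.1 midpoint.

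Site 6 was intronic in Evi2a-201 and lay in the second exon of the longer transcript Evi2a-205. The PU.1 and CEBPA midpoints at site 6 were each 51 bp from the start of the short transcript Evi2a-203, one on either side of it. The upstream start of Evi2a, at chr11:79530609, had no peak within 1000 bp, and the nearest PU.1 and CEBPA midpoints to it were 2412 bp and 2514 bp away. Site 5 lay within 1000 bp of the start of Evi2a-204 (687 bp for PU.1 and 597 bp for CEBPA). That start is marked as incomplete in the annotation. The CEBPA midpoint of site 5 was also within 1000 bp of the start of Evi2a-203, but its PU.1 midpoint was not. Of 21951 protein-coding genes, 77 (0.351%) had, like Evi2a, PU.1 and CEBPA peaks of PU.1+ and no peak of PU.1− within 1000 bp of a transcript start.

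**Figure D2:**
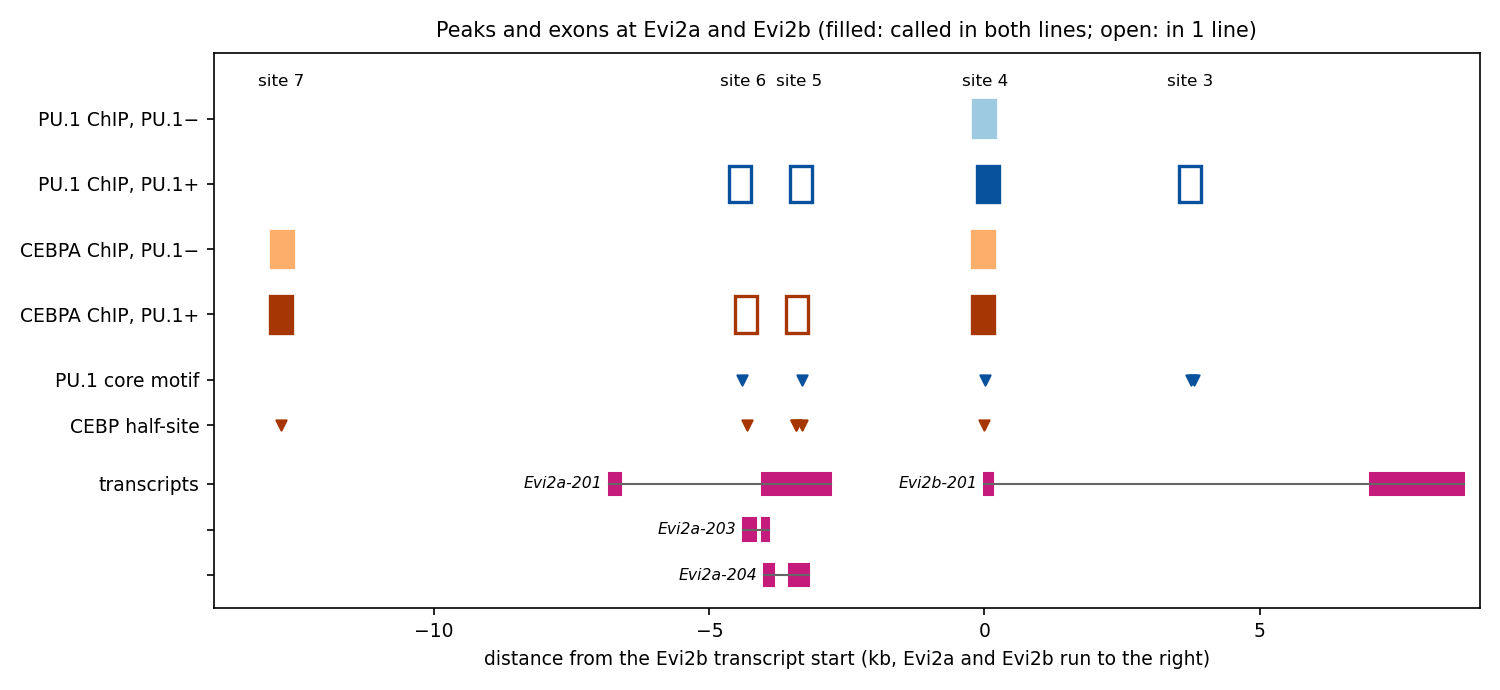
Peaks of the 4 lists, motif matches inside them and exons at Evi2a and Evi2b, by distance in kb from the start of Evi2b, with both genes running to the right. Filled boxes are peaks called in both lines and open boxes are peaks called in 1 line; the open boxes at sites 5 and 6 in Evi2a are all in PU.1+, while site 4 at the Evi2b start has a filled box in every list.

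Across the genome, 925 new PU.1 peaks overlapped a CEBPA peak of PU.1+ and no CEBPA peak of PU.1−, here called gained CEBPA. The PU.1 midpoints of sites 5 and 6 were 1109 bp apart and the CEBPA midpoints 917 bp apart. Only 14 of the 925 peaks (1.51%) had another such peak as near as this, and 22 (2.38%) had one within 2000 bp, whereas the median distance to the nearest other one was 429644 bp. A gene body with 2 or more of them was found for 36 of 21951 protein-coding genes (0.164%), a list that includes Evi2a and, because they overlap it, Evi2 and Nf1. The 36 genes had a median length of 246679 bp, and Evi2a was the only one of at most 5000 bp. As this pair of sites drew attention to the locus, these shares describe it and are no test of it.

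**Figure D3:**
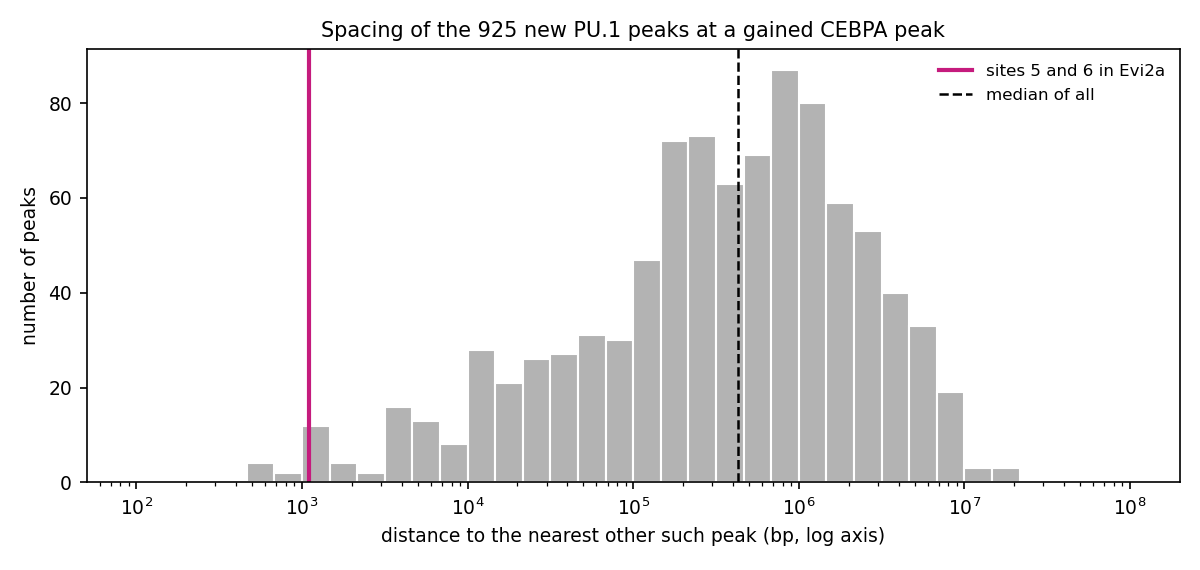
Distance from each of the 925 new PU.1 peaks with gained CEBPA to the nearest other one (bp, log axis) against the number of peaks. The line for sites 5 and 6 of Evi2a, at 1109 bp, lies far to the left of the dashed median at 429644 bp.

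In contrast to Evi2a, its neighbour Evi2b was bound in both lines. All 4 lists had a peak at the single annotated start of Evi2b, chr11:79523762 (site 4). The PU.1 peak was at chr11:79523572-79523971 in PU.1− and at chr11:79523507-79523906 in PU.1+, and the CEBPA peak was at chr11:79523585-79523984 and chr11:79523595-79523994, respectively. The PU.1 midpoint lay 9 bp upstream of the start in PU.1− and 56 bp downstream, in the 5′ UTR, in PU.1+. The CEBPA midpoint was 22 bp upstream in PU.1− and 32 bp upstream in PU.1+. A peak of all 4 lists within 1000 bp of a transcript start was found for 282 of 21951 genes (1.28%).

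At site 4 the PU.1 midpoint moved by 65 bp between the lines, and the CEBPA midpoint by 10 bp. For all shared PU.1 peaks the median shift was 23 bp, and 81.2% of them shifted by 65 bp or less. As a result the PU.1 and CEBPA midpoints at Evi2b were 13 bp apart in PU.1− and 88 bp apart in PU.1+. The ETS site upstream of Evi2b, printed above, was centred 3 bp from the PU.1 midpoint of PU.1− and 68 bp from that of PU.1+. The width of every peak was 400 bp, so a shift of the midpoint was the only change of shape that the lists could show.

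A further new PU.1 peak was called 3731 bp inside Evi2b, in its single intron, at chr11:79519832-79520231 (site 3). It had no CEBPA peak in either line. Such sites with PU.1 of PU.1+ alone made up 9482 of the 40138 sites (23.6%). Omg, which is known from the nervous system, had no peak in its body, and the nearest midpoint was 15947 bp upstream of its start, at site 3. No peak of any list lay within 1000 bp of a start for 16034 of 21951 genes (73.0%), among them Omg, Evi2 and Rab11fip4.

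Nf1 itself had no peak at its main promoter. The nearest midpoint to the first base of the gene was 32466 bp upstream, at site 1. There, PU.1 was called at chr11:79307028-79307427 in PU.1+ only and CEBPA at chr11:79306951-79307350 in PU.1− only. It was thus the 1 site of the window where a CEBPA peak was missing from PU.1+ while a PU.1 peak appeared, with midpoints 77 bp apart. The GENCODE annotation had no gene there, and RefSeq placed the site inside the uncharacterised gene Gm30561. Sites with this pattern were 266 of 40138 (0.663%).

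Inside Nf1 but outside the nested genes, sites 2 and 7 carried CEBPA in both lines. Site 2 lay in intron 27, with CEBPA at chr11:79452442-79452841 in PU.1− and at chr11:79452432-79452831 in PU.1+, next to the processed pseudogene Gm11199. A new PU.1 peak at chr11:79452463-79452862 was added there in PU.1+, with its midpoint 31 bp from that of CEBPA. Site 7 lay in intron 37, at chr11:79536336-79536735 in PU.1− and chr11:79536342-79536741 in PU.1+, 5926 bp upstream of Evi2a in PU.1−. It was 373 bp and 367 bp from the start of Nf1-208, a transcript annotated as a retained intron. No PU.1 peak was called at site 7.

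Beyond the end of Nf1, CEBPA was called in both lines at site 8, chr11:79583411-79583810 in PU.1− and chr11:79583437-79583836 in PU.1+. Site 8 lay between genes, 7602 bp and 7576 bp before the start of Rab11fip4. Sites with CEBPA in both lines and no PU.1, like sites 7 and 8, were the most frequent kind, with 13477 of 40138 (33.6%). Site 9 carried PU.1 in both lines without CEBPA, at chr11:79623082-79623481 and chr11:79623076-79623475, in an intron of Rab11fip4 and just upstream of Rab11fip4os1, a gene antisense to it. The midpoints at site 9 differed by 6 bp.

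The 9 sites showed 7 of the 15 possible combinations of the 4 lists. At least as many combinations were found in the windows of 508 of 21951 genes (2.31%). Of the combinations absent from the window, CEBPA of PU.1− alone was the most frequent in the genome, with 7267 sites (18.1%).

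The classes at the locus were set beside those of the whole lists, with exact binomial (Clopper-Pearson) 95% intervals that cover counting error only. Of the 7 PU.1 peaks in PU.1+, 5 were new (71.4%, interval 29–96.3%), against 81.1% of all 15683. Neither of the 2 PU.1 peaks in PU.1− was specific to that line, against 43.8% of all 5288. Of the 5 CEBPA peaks in PU.1−, 1 was called in that line only (20%, 0.505–71.6%), against 30.7% of all 26119. Of the 6 CEBPA peaks in PU.1+, 2 were new (33.3%, 4.33–77.7%), against 12.1% of all 20583. Each of these intervals included the share in the whole list. The new peaks include those at sites 5 and 6, by which the locus was chosen, so these shares are no test.

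PU.1 and CEBPA peaks coincided at 1 site of the window in PU.1− and at 4 in PU.1+. In PU.1−, 1 of 2 PU.1 peaks overlapped a CEBPA peak (57.6% in the whole list) and 1 of 5 CEBPA peaks overlapped a PU.1 peak (11.7%). In PU.1+, the counts were 4 of 7 (57.1%, 18.4–90.1%, against 29.8%) and 4 of 6 (66.7%, 22.3–95.7%, against 22.7%). The whole-list share was inside the interval in each case. The overlapping peaks of PU.1+ include those at sites 5 and 6, by which the locus was chosen, so these shares describe it and are no test. The 4 sites in PU.1+ were sites 2, 4, 5 and 6, all within Nf1, of which 3 lay at Evi2a or Evi2b.

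**Figure D4:**
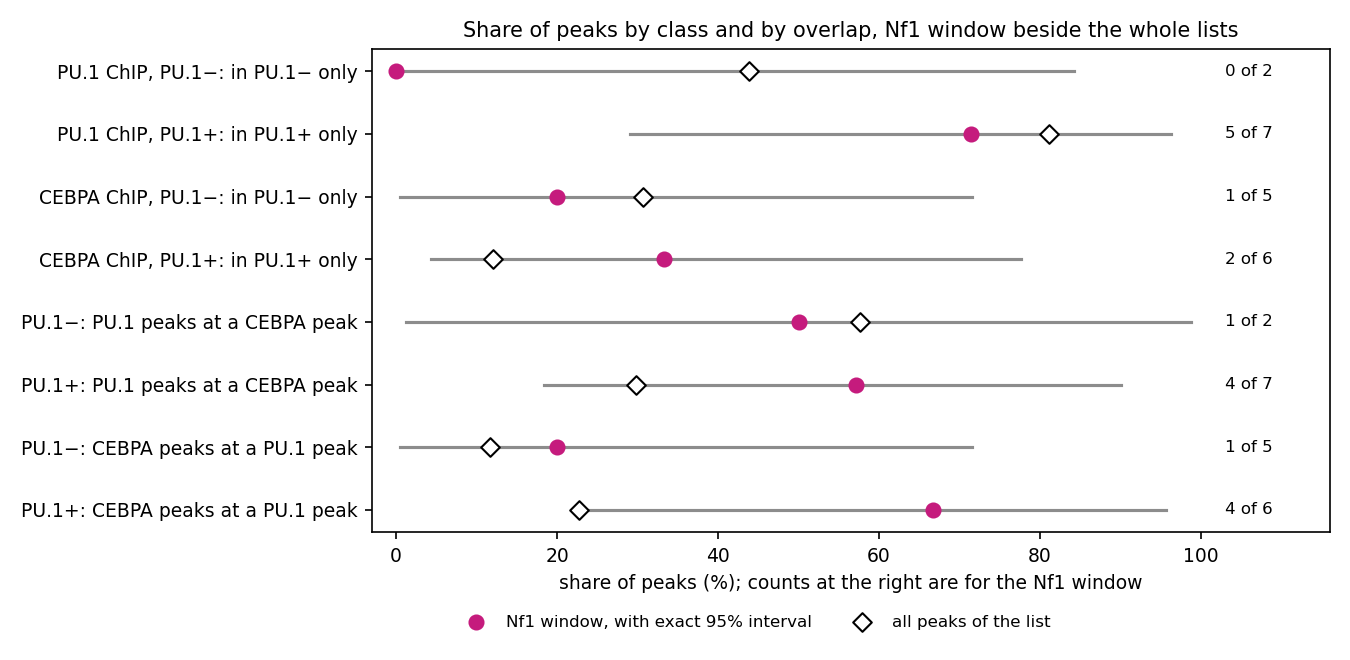
Share of peaks (%) called in 1 line only, and share overlapping a peak of the other factor, for the Nf1 window (magenta points with exact 95% intervals) and for all peaks of the list (open diamonds). The intervals are wide because the window holds 2 to 7 peaks per list, and each of them includes the whole-list share. The peaks at Evi2a by which the locus was chosen are counted here, so the shares are no test.

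The 5 new PU.1 peaks differed in what CEBPA did beside them. CEBPA was gained at 2 (sites 5 and 6, interval 5.27–85.3%), against 7.28% of all 12714 new PU.1 peaks. It was kept at 1 (site 2), against 15.9%, and lost at 1 (site 1), against 2.20%. It was not called in either line at 1 (site 3), against 74.6%. The interval for each share of 1 of 5 was 0.505–71.6%, and the whole-list share of 74.6% lay just above it. The locus was chosen by its gained peaks, so these shares describe it and are no test. In the other direction, both new CEBPA peaks of the window overlapped a new PU.1 peak (interval 15.8–100%), against 36.8% of the 2484 new CEBPA peaks. The midpoints of PU.1 and gained CEBPA lay a median of 46 bp apart over the 925 pairs, and the 90 bp and 102 bp at Evi2a were at the wide end, since 75.7% and 80.2% of the pairs were no farther apart.

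The central 80 bp of all 5 new PU.1 peaks held a PU.1 core, GAGGAA on either strand, against 44.2% of all new PU.1 peaks. Its centre was 17, 1, 28, 16 and 30 bp from the midpoint at sites 1, 2, 3, 5 and 6. Of the peaks called in both lines, site 4 had it 23 bp from the PU.1 midpoint of PU.1− (18.1% of all PU.1 peaks of PU.1− held it in the central 80 bp) and 42 bp from that of PU.1+, just outside the central 80 bp, and site 9 had none in its whole length. In the central 200 bp, 6 of the 7 PU.1 peaks of PU.1+ held it, against 57.2% of all. This motif was chosen after the sequences of the peaks had been seen, and the match is a description of the letters.

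The ETS site GGAAGT gave another picture. In the central 80 bp it was found in only 1 of the 7 PU.1 peaks of PU.1+ (site 2), against 43.5% of all, and in 1 of the 2 peaks of PU.1− (site 4), against 36.5%. Over the whole peak it was found at sites 2, 4 and 9 and at none of sites 1, 3, 5 and 6. A match over the whole length was found in 64.5% of all PU.1 peaks of PU.1+ and in 63.5% of all new ones. The peaks called in both lines, at Evi2b and in Rab11fip4, had 2 and 3 ETS sites each, and 1 of the 5 new peaks had any. At site 2 and in the first exon of Evi2b, the PU.1 core and the ETS site overlapped in 1 run of letters, as printed above.

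An exact match to the full CEBP site was likewise missing from most CEBPA peaks of the window. The full site TTGCNNAA was found in the central 80 bp of 1 of the 6 CEBPA peaks of PU.1+ (site 8), against 38.2% of all. A half-site TTGCA, again chosen after the sequences had been seen, was present in 5 of 6, against 40% of all. At site 5 a pair of overlapping half-sites on opposite strands lay 0 and 1 bp from the CEBPA midpoint, at site 6 a half-site was 15 bp from it, and at site 4 16 bp. Site 7 held TTGCATCA, present in 4.67% of all CEBPA peaks of PU.1+. Site 2, which had no half-site, held the palindrome TTACGTAA, present in 0.607%.

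**Figure D5:**
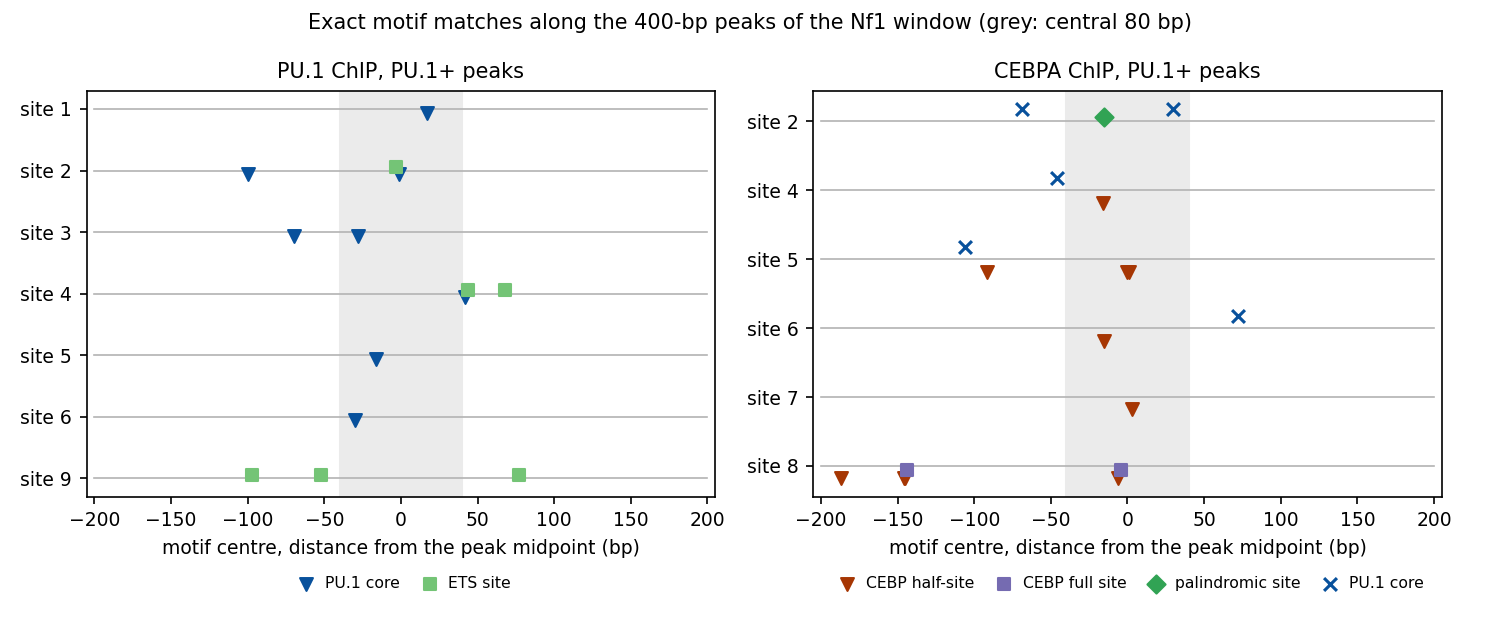
Centres of motif matches along each 400-bp peak of PU.1+, in bp from the peak midpoint, for the 7 PU.1 peaks (left) and the 6 CEBPA peaks (right), with the central 80 bp in grey. A PU.1 core falls in the grey band at sites 1, 2, 3, 5 and 6, which are the new PU.1 peaks, and just outside it at site 4, and a CEBP half-site or a palindrome falls in it at each of the 6 CEBPA sites.

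Matches to motifs of both factors were present in the peaks at sites 5 and 6 of Evi2a. Over the whole peak, a PU.1 core was found in 47% of all new CEBPA peaks. A CEBP half-site was found in 52.5% of all new PU.1 peaks. At site 5 the PU.1 core was 106 bp from the CEBPA midpoint, and the half-sites under the CEBPA midpoint were 90 and 91 bp from the PU.1 midpoint. Another half-site lay 2 bp from the PU.1 midpoint and 92 bp from the CEBPA midpoint. At site 6 the PU.1 core was 72 bp from the CEBPA midpoint, and the half-site was 117 bp from the PU.1 midpoint. Site 5 also held the ETS-IRF composite, centred 38 bp from the PU.1 midpoint, a motif present in 18.4% of all PU.1 peaks of PU.1+ over their whole length. The same composite occurred at site 7, 23 bp and 29 bp from the CEBPA midpoints of PU.1− and PU.1+, where no PU.1 peak was called (0.838% and 1.1% of all CEBPA peaks held it in the central 80 bp). The CEBPA peak lost at site 1 had no full CEBP site and no half-site in its 400 bp, but it had an AP-1 site (TGANTCA), present in the central 80 bp of 4.36% of all CEBPA peaks of PU.1−. RUNX sites, searched as TGTGGT and TGCGGT, were found in the central 80 bp of none of the 7 PU.1 peaks of PU.1+, against 10.3% and 1.25% of all.

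Promoter sequences of RefSeq, from 250 bp before to 50 bp after a gene start, were listed for 2 of the 4 member genes, Nf1 and Evi2b. The Evi2b promoter had 2 ETS sites, a number reached by 4.18% of 32851 promoters, with 1 PU.1 core and 1 CEBP half-site. The Nf1 promoter had 1 ETS site (23.8% of promoters had 1 or more) and no PU.1 core, and no peak was called there. The promoter of the readthrough gene Evi2, which begins near the upstream start of Evi2a, had 1 PU.1 core (28.3% of promoters) and likewise no peak.

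Base composition and repeats varied between the sites. The G+C content of the PU.1 peaks of PU.1+ ran from 36% at site 3 to 53.5% at site 1, with a median of 43.2% against 45.5% for the whole list. For the CEBPA peaks of PU.1+ the median was 40.4% against 46.2%. Both peaks at site 5 were free of repeat-masked bases, whereas 46.0% and 47.2% of the bases at site 7 were masked. The part of repeats in the peak calls was not tested.

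The number of peaks in the Nf1 window was compared with the windows of all 21951 protein-coding genes, each drawn in the same way. At least 2 shared PU.1 peaks were found in 5.63% of windows, and at least 5 new PU.1 peaks in 4.15%. For CEBPA, 1 or more peaks specific to PU.1− were found in 44.1%, at least 4 shared peaks in 17.8% and at least 2 new peaks in 3.83%. At least 2 new PU.1 peaks with gained CEBPA were found in 0.656%. Nf1 is a long gene, and long windows hold more peaks. Per 100 kb of window, 22.4% of windows had as many new PU.1 peaks as the 1.46 of the Nf1 window, and 5.20% had as many with gained CEBPA as its 0.585. Because the locus was chosen by its new peaks at Evi2a, the shares for new peaks describe it and are no test.

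The genes most like Nf1 were those with the smallest summed difference over the 6 counts of shared and line-specific peaks, among 21943 genes elsewhere. Plpp3, which encodes a lipid phosphate phosphatase, and Tbc1d2, which encodes a RAB GTPase-activating protein, had the same 6 counts as Nf1. Lyrm4, Zdhhc19 and Pmaip1 differed by 1 peak each. Of these, Tbc1d2 also had 2 new PU.1 peaks with gained CEBPA, Lyrm4 and Zdhhc19 had 1 each, and Plpp3 and Pmaip1 had 0. The same counts can arise from different arrangements of peaks, and no shared control is implied.

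Peaks were also called beyond both edges of the window, so the counts depend on where the edges were set. The first peak inside was the CEBPA peak of PU.1− at site 1, 17457 bp from the edge, and the last was the PU.1 peak at site 9, 8331 bp from it. Just outside, a CEBPA peak called in both lines lay 1980 bp and 1983 bp before the window and a new PU.1 peak 3622 bp before it. After the window, the nearest peak was a CEBPA peak of PU.1− alone, at 9614 bp, and a new PU.1 peak followed at 20787 bp.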

How the data were processed

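PU.1 and CEBPA ChIP-Seq lists of X18.1.1 clonal lines were used, 1 library per antibody and line. The authors mapped reads to mm10 and called peaks, and the submitters' processing notes name Bowtie2 2.0.6 and MACS2 2.0.10. The deposited lists hold coordinates only, in base pairs, and the calling threshold and how the 400-bp width was set are not given in the sources used here. The 2 h in OHT of both lines is that of the labels, although a time 0 is also named in the text of the paper. Read depth is unknown, so precision is given only as exact 95% binomial intervals for shares. With 1 library per group no test was possible.

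Peaks sharing at least 1 bp were matched, as in the authors' merging step, and placed by midpoint on GENCODE M21 gene models. A promoter was within 1000 bp of any transcript start of a protein-coding gene, so starts of antisense genes and pseudogenes were not counted. Motifs were exact matches on both strands in the central 80 bp, and alternatives were the central 200 bp, the whole peak, 50% overlap, midpoints within 100 bp, other windows and promoters within 2500 bp. The PU.1 core, the CEBP half-site and the motifs named by their 8 letters at sites 2 and 7 were added after the sequences had been seen. Named genes were the members, genes in the window and the 5 genes with the most similar counts. The members, lists and motifs were chosen with earlier results of these data known. Overlap classes of 2000 simulated peaks and 1000 planted motif sites were recovered at 100%. Python 3.11.15, numpy 2.4.6, scipy 1.17.1, pysam 0.24.0, samtools 1.23.1 and matplotlib 3.10.9 were used.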

Additional observations from a re-analysis of the deposited data

How the results depend on the processing

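Of 96 alternative values for 30 results, 58 stayed within 1.5 times the value reported and 38 moved further. With the gene body alone or 20 kb on each side, PU.1 peaks of PU.1− and shared PU.1 peaks fell to 1 each, and CEBPA peaks specific to PU.1− to 0, and with the gene body alone CEBPA peaks of PU.1− numbered 3. With 100 kb on each side there were 12 PU.1 peaks in PU.1+ (9 of them new), 11 CEBPA peaks in each line (9 shared and 2 specific to PU.1−), and 2 and 7 PU.1 peaks at CEBPA in PU.1− and PU.1+. The CEBPA peaks new in PU.1+ stayed at 2 under all 3 windows. Requiring midpoints within 100 bp left 1 new PU.1 peak at a new CEBPA peak, because those of site 6 were 102 bp apart.

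In the central 200 bp and in the whole peak, ETS sites were found in 3 PU.1 peaks of PU.1+ (58.2% and 64.5% of all, respectively) and 2 of PU.1− (53.7% and 62.3%), RUNX sites (TGTGGT) in 3 and 4 of PU.1+ (23.8% and 36.5%), and the ETS-IRF composite in 1 of PU.1+ (16% and 18.4%). An AP-1 site was found in 1 only over the whole peak (15.8%). With GAGGAA in place of GGAAGT, chosen after seeing the data, 5 PU.1 peaks of PU.1+ held a match in the central 80 bp (41.6% of all), and with TTGCA in place of TTGCNNAA, 5 CEBPA peaks of PU.1+ (40%) and 3 of PU.1− (38.6%). Among genes of at least 100 kb, windows with at least the counts at Nf1 made up 9.95% for shared PU.1, 14% for new PU.1, 30.9% for shared CEBPA, 7.42% for new CEBPA and 1.77% for new PU.1 with gained CEBPA. Per 100 kb, these were 18.4%, 22.4%, 40.4%, 14.8% and 5.20%. The shares for new peaks are no test, since the locus was chosen by such peaks. Of the 20 peaks of the window, 10 were placed at promoters. Leaving out transcript starts marked incomplete, also chosen after seeing the data, left 9 of the 20 there. No share over all peaks is given beside these counts, so they are descriptions only. No paired analysis was possible because each antibody and line had 1 library.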
